A study of Mus musculus with 167 samples.

Results

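Levels of 33 genes that act in DNA replication and mitosis were compared across tumours of 35 mouse strains. The genes were taken by symbol from a fixed list, and each had a single entry among the 36118 genes of the count table. They fall into 8 replication genes (Mcm2, Mcm3, Mcm4, Mcm5, Mcm6, Mcm7, Pcna and Rrm2), 4 genes that load or start the replication machinery (Cdc6, Cdt1, Gins1 and Gins2) and 21 mitotic genes (Mki67, Top2a, Ccna2, Ccnb1, Ccnb2, Cdk1, Foxm1, Aurka, Aurkb, Plk1, Bub1, Bub1b, Cdc20, Ube2c, Cenpa, Cenpe, Cenpf, Birc5, Kif11, Kif20a and Tpx2).

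The data are RNA-seq of 167 tumours from 119 mice. Each mouse was the offspring of a male of a Collaborative Cross line, an inbred line with a mosaic of founder genomes, and a MexTAg female. MexTAg mice express the SV40 large T antigen from the mesothelin promoter, so all groups carry this oncogene in mesothelial cells. All mice also received asbestos, as 2 injections of 3 mg crocidolite into the abdominal cavity, 1 month apart, and no group was left untreated. The strain is the name of the male's line, and each mouse is also placed above (83 mice) or below (36 mice) median survival. Ages of the mice were not used here. Comparisons between strains used the 25 strains with 3 or more mice, 103 mice in all.

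Cells that copy their DNA switch on the minichromosome maintenance genes, whose products form the helicase ring that opens the double helix, together with Pcna, the sliding clamp of the polymerases, and Rrm2, a subunit of the enzyme that makes deoxynucleotides. Later, as cells approach division, they switch on genes for the mitotic kinases, the spindle checkpoint, the kinetochore and the anaphase-promoting complex. The large T antigen binds the retinoblastoma proteins, which otherwise hold E2F transcription factors in check, and replication genes are textbook E2F targets. Many mitotic genes are instead controlled through a cell cycle homology region (CHR) near the start site and CCAAT boxes upstream of it.

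These classes could be seen in part in the promoter letters of the genes, by the E2F and CHR letters but not by CCAAT. RefSeq promoters of build GRCm38.p6, each of 300 bases from 250 before to 50 after the annotated start, were matched for 25 of the 33 genes. An E2F-type octamer (TTTCCCGC, TTTCGCGC, TTTGCCGC or TTTGGCGC, on either strand) stood in 4 of 7 replication promoters (Mcm3, Mcm5, Mcm6 and Mcm7), in both matched loading promoters (Cdc6 and Cdt1) and in 1 of 16 mitotic promoters (Cdk1). The same octamers stood in 2.26% of all 32851 promoters. The CHR letters TTTGAA, on either strand, stood in 12 of 16 mitotic promoters and 1 of 7 replication promoters (Mcm2), against 17.89% of all promoters. CCAAT, on either strand, stood in 15 of 16 mitotic and 7 of 7 replication promoters, against 37.41%. Overlapping matches were counted once per promoter. Each of the 25 genes was counted once, with a match if any promoter of the gene held the letters. The shares of all promoters were instead counted per promoter. A match is a description of the letters and not evidence of a bound factor. Below are 2 replication promoters with the E2F-type octamer and 2 mitotic promoters with the CHR letters, the first of each list by alphabet, to show the 2 kinds side by side. They are written 5′ to 3′ on the gene's strand with the annotated start right after the first 250 bases, and capitals mark the E2F-type octamers, TTTGAA and CCAAT on either strand.
Mcm3, chr1:20820263-20820562, minus strand: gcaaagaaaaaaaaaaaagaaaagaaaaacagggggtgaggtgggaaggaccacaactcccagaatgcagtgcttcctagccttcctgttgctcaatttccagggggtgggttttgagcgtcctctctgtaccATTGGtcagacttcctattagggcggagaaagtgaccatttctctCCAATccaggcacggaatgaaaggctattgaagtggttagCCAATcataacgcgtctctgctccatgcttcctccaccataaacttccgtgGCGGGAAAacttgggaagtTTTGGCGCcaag
Mcm5, chr8:75109259-75109558, plus strand: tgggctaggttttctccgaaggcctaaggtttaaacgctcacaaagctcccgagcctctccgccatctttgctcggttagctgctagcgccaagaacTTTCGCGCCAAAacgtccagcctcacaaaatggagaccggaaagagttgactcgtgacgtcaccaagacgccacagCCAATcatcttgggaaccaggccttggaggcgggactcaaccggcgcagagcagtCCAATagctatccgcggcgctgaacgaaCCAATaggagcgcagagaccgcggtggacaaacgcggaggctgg
Aurka, chr2:172370521-172370820, minus strand: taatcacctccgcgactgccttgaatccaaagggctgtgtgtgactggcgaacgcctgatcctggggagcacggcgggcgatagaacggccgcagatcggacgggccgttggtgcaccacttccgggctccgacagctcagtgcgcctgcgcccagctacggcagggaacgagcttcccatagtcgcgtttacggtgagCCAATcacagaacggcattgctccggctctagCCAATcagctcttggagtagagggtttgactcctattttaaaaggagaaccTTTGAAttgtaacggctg
Bub1b, chr2:118597961-118598260, plus strand: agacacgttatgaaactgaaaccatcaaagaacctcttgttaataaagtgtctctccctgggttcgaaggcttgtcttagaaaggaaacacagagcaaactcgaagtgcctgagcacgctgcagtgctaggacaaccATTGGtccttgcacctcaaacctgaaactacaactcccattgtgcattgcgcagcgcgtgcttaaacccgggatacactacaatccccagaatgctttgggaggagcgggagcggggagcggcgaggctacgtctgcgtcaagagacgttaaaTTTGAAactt
In Mcm3 the E2F-type octamers began at bases 20 and 39 after the start of the gene, and in Mcm5 a pair of them overlapped upstream of the start. In Aurka and Bub1b the CHR letters began at bases 33 and 41 after the start.

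A few facts on the libraries bear on the results. Each library held between 11138491 and 35399287 estimated counts, and all tumours of a mouse were summed, so the mouse is the replicate. The mesothelial markers Msln, Wt1, Krt8 and Krt18 had counts in all 119 mice, and 9 of 10 mesothelial markers had a median above 1 CPM, the count scaled to library depth, while Calb2 was at 0 in 41 mice. Of 162 libraries whose expression could be checked against strain means, 6 were nearer to another strain than to the strain on their label (1 each of Rogan, LOX, CC059 and MEE, and 2 of LAT). In 19 libraries the markers of another tissue took over 1% of counts, up to 42.02% for reproductive tract genes in a LOX tumour and 20.1% for hepatocyte genes in a LAX tumour. Svs5, a seminal vesicle gene, exceeded 10 CPM in 35 libraries of 17 strains, and Umod, a kidney gene, exceeded 2 CPM in 34 libraries of 10 strains. No library exceeded both limits. The strain order by each score, the likeness of the 2 orders and the tests are therefore also given without these sets, and other results with all libraries only. Whole tumours were sequenced, so fewer dividing cells and less RNA of these genes per cell cannot be told apart.

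Levels are log2 CPM per mouse after TMM scaling. The replication score of a mouse is the mean over the 8 replication genes of log2 CPM after subtracting each gene's mean over 119 mice, and the mitotic score is the same over the 21 mitotic genes. A score of 1 thus means levels about 1 log2 unit above the average mouse.

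**Figure D1:**
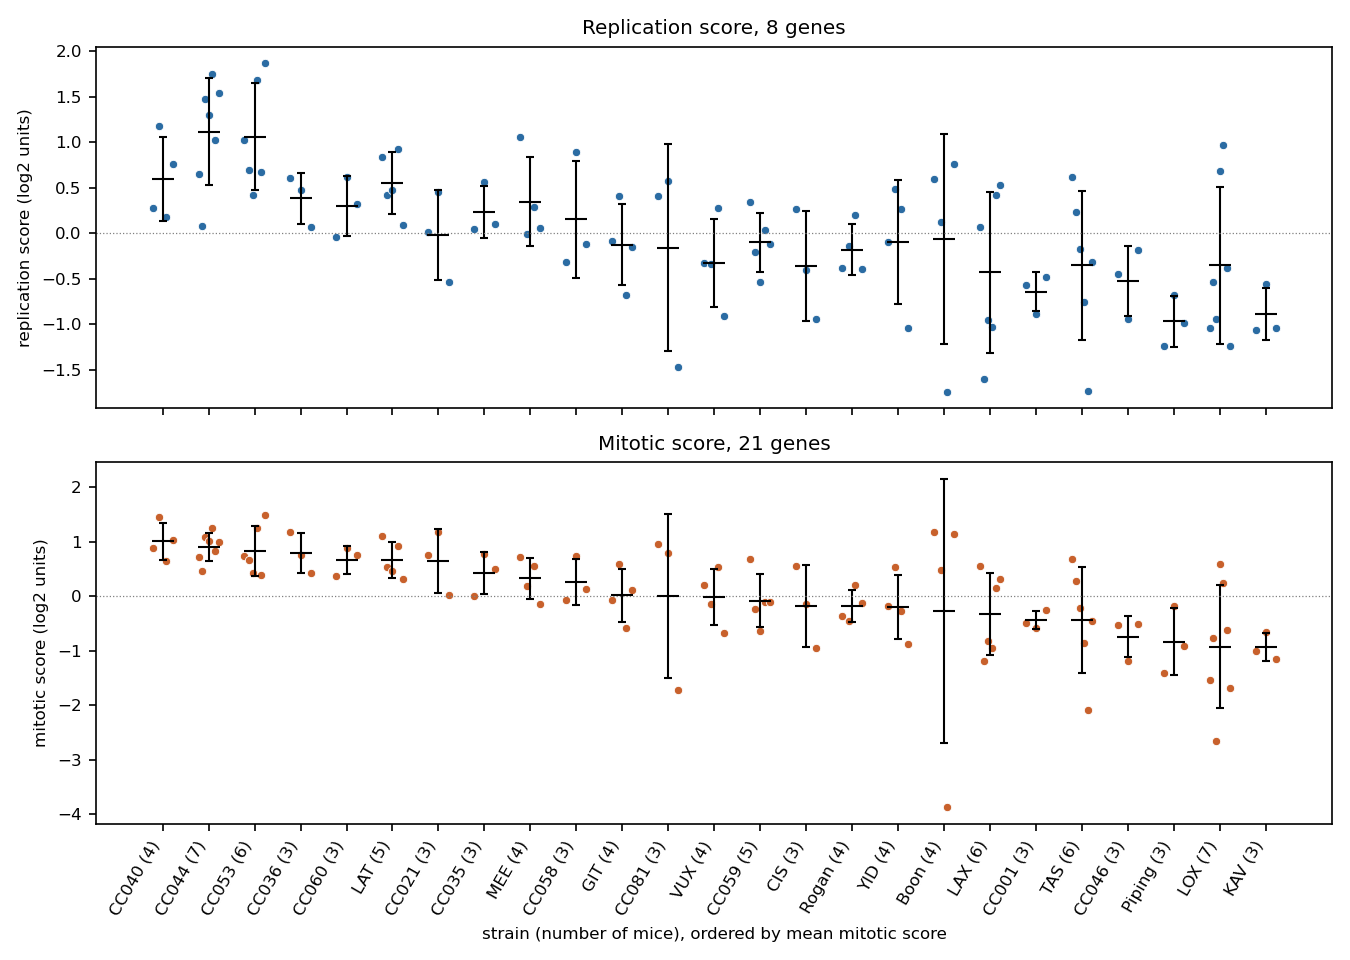
Replication score (upper panel) and mitotic score (lower panel), in log2 units, of each mouse (points) in the 25 strains with 3 or more mice, with the strain mean and SD (black bars) and the number of mice in brackets. Strains run from CC040, with the highest mean mitotic score of 1.00, to KAV, with the lowest of -0.93, and Boon-I2 lies far below the other mice of its strain.

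The mitotic score was highest in CC040, CC044 and CC053 and lowest in KAV, LOX and Piping. The 4 CC040 mice had mitotic scores of 0.65, 0.88, 1.03 and 1.46, with a mean of 1.00 ± 0.34 (SD). The 3 KAV mice had scores of -1.15, -1.003 and -0.65, with a mean of -0.93 ± 0.26. No CC040 mouse overlapped any KAV mouse. The 7 CC044 mice ran from 0.46 through a median of 1.00 to 1.25 (mean 0.91 ± 0.26), and the 6 CC053 mice from 0.39 through 0.69 to 1.497 (mean 0.83 ± 0.45). The 7 LOX mice were widely spread, from -2.66 through -0.77 to 0.58 (mean -0.92 ± 1.14), and the highest of them lay within the range of CC044. The 3 Piping mice had scores of -1.40, -0.91 and -0.18 (mean -0.83 ± 0.61).

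The replication score put CC044, CC053 and CC040 first and Piping, KAV and CC001 last. The 7 CC044 mice ran from 0.08 through a median of 1.30 to 1.75 (mean 1.12 ± 0.59, SD), and the 6 CC053 mice from 0.42 through 0.86 to 1.87 (mean 1.06 ± 0.59). The 4 CC040 mice had scores of 0.18, 0.27, 0.76 and 1.18 (mean 0.60 ± 0.46). At the other end the 3 Piping mice had scores of -1.24, -0.99 and -0.69 (mean -0.97 ± 0.28), and the 3 KAV mice -1.06, -1.04 and -0.56 (mean -0.89 ± 0.28). The 3 CC001 mice had scores of -0.88, -0.57 and -0.48 (mean -0.64 ± 0.21). None of the CC044, CC053 and CC040 mice was as low as any of these 9 mice.

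The order of the strains was fine-grained in the middle. All 24 pairs of neighbours in either order differed by less than the SD among mice of a strain, which was 0.63 for the replication score and 0.78 for the mitotic score. No 2 neighbouring strains were free of overlap. Of all 300 pairs of strains, 48 did not overlap in the replication score and 57 did not overlap in the mitotic score. Differences between strains made up 50.4% of the variance of the replication score over the 103 mice and 43.6% of that of the mitotic score. Shares here and below were not adjusted for the number of strains, so part of each arises from dividing mice into many groups. Gene by gene, the share between strains had a median of 43.98% over the 33 genes, from 35.1% in Rrm2 to 51.1% in Ube2c, beside a median of 34.7% over all 22883 genes with levels.

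**Figure D2:**
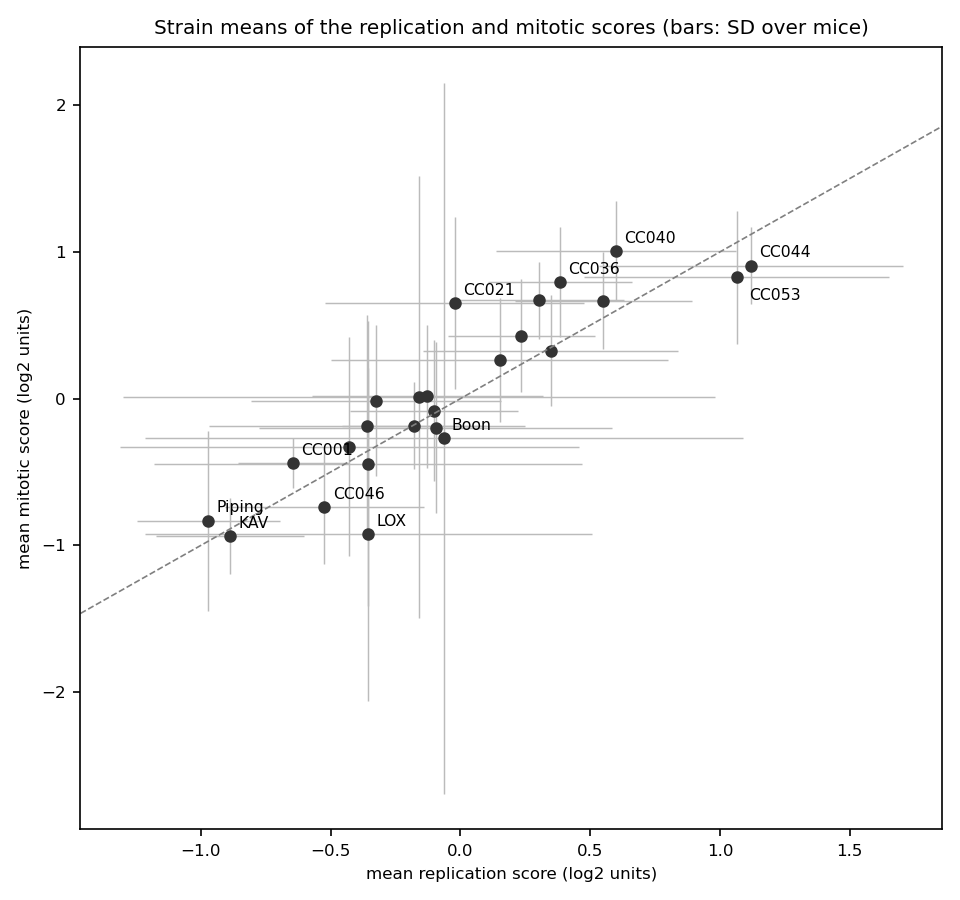
Mean replication score (horizontal axis) against mean mitotic score (vertical axis), both in log2 units, for 25 strains, with bars for the SD over mice and a dashed line where both are equal. Strains high in one score were high in the other (Spearman rho 0.915), with LOX below the line and CC021 above it.

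Replication and mitotic genes ranked the strains much alike. Over the 25 strain means Spearman's rho was 0.915 and Pearson's r was 0.898. These are descriptions with no test, since both scores come from the same libraries and share their depth and scaling. In 20 of 25 strains the ranks by the 2 scores differed by 3 or less, and the widest gap was 7 ranks, in Boon. The highest 5 strains by each score shared 4, and the lowest 5 shared 3. Without CC053 and CC044, the strains farthest from the median replication score, rho was 0.894 and r was 0.904. The likeness also held among mice of a strain, where deviations from the strain mean had a rho of 0.932 over 103 mice. Within the 8 strains whose libraries mostly exceeded the Umod limit rho was 0.976, and within the other 17 it was 0.880 (0.836 without CC053 and CC044).

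A few strains leaned to one class of genes. The difference of replication minus mitotic score was highest in LOX (0.57 ± 0.55, SD, n = 7), CC053 (0.24 ± 0.18, n = 6) and CC046 (0.22 ± 0.13, n = 3). It was lowest in CC021 (-0.67 ± 0.10, n = 3), CC036 (-0.41 ± 0.15, n = 3) and CC040 (-0.40 ± 0.16, n = 4). The 3 CC021 mice had differences of -0.74, -0.72 and -0.56, and all 7 LOX mice lay above 0, from 0.10 through 0.45 to 1.72, so these strains did not overlap. Without the Svs5 libraries the LOX mean was 0.68 ± 0.64 (n = 5) and the CC021 mean, with no library lost, -0.65 ± 0.10. All libraries of CC021 and CC036 exceeded the Umod limit, so neither strain could be checked without that set. Over libraries the median difference was -0.226 above the Umod limit, 0.052 above the Svs5 limit and -0.055 above neither. The part of the library sets in these leanings was not tested. Without Boon-I2 the Boon mean moved from 0.20 to -0.44 ± 0.13 (n = 3), below CC036 and CC040. Without LOX-C1, the highest of them, the LOX mean was 0.38 ± 0.23. The SD of this difference among mice of a strain was 0.36.

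The 4 loading genes followed the replication genes. Cdc6 and Cdt1 bring the helicase to origins and Gins1 and Gins2 are subunits of the complex that activates it. Over strain means the mean of these 4 genes had a rho of 0.967 with the replication score and 0.895 with the mitotic score. Cdt1 was the loading gene whose strain mean was highest in LAT, at 6.10 ± 0.59 log2 CPM (SD, n = 5), where the mice ran from 5.48 to 6.96, against 3.91 ± 0.18 in Piping (n = 3). Cdc6 ran from 2.68 ± 0.49 in KAV to 4.99 ± 0.72 in CC044, Gins1 from 1.88 ± 0.30 in CC001 to 3.70 ± 0.47 in CC044, and Gins2 from 3.95 ± 0.71 in KAV to 5.66 ± 0.65 in CC040, all in log2 CPM.

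**Figure D3:**
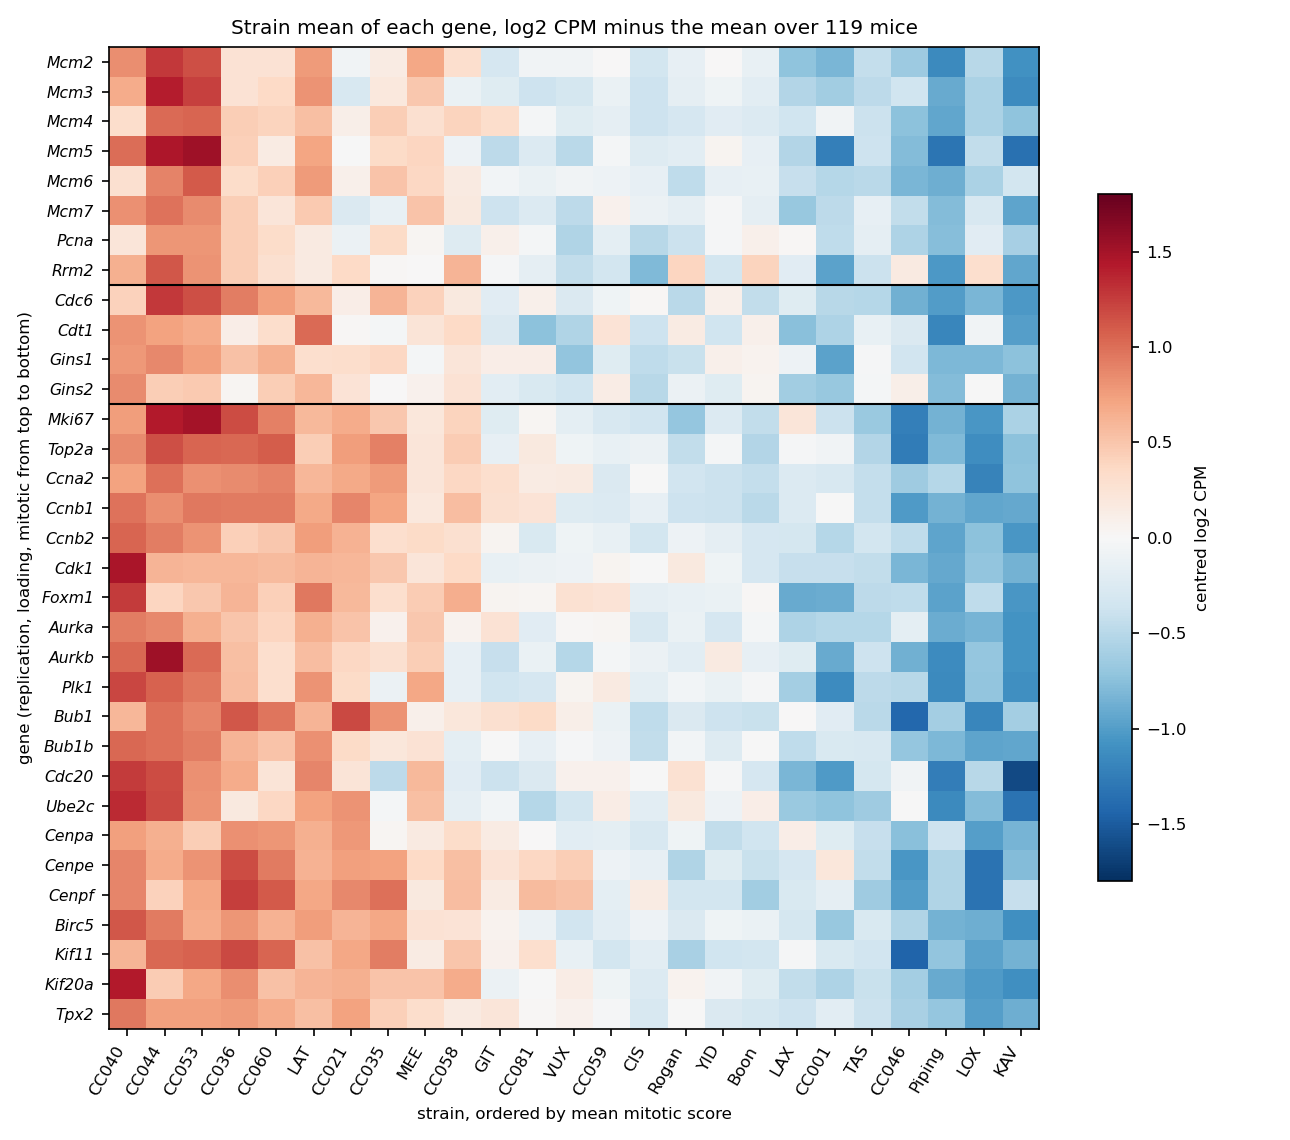
Strain mean of each of the 33 genes (rows, grouped as replication, loading and mitotic by black lines) in 25 strains (columns, ordered by mean mitotic score), as log2 CPM minus the mean over 119 mice, red above and blue below. Most genes run from red on the left to blue on the right, while Rrm2 is above average in LOX at the low end (0.31), and Mki67, Kif11 and Bub1 stand lowest in CC046.

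All 33 genes differed between strains in edgeR's quasi-likelihood F-test over 103 mice with Benjamini-Hochberg adjustment, beside 69% of all 20687 genes tested. With limma-voom all 33 also passed, beside 50.4% of all genes. In these 2 fits the members' share is thus above a background that is itself high. The 33 genes vary together, so they do not count as 33 separate observations. Leaving out 1 replicate number of each strain at a time gave 18 to 33 genes, the 18 beside 57.5% of all genes. The highest and lowest strain means of a gene differed by between 2.96-fold (Pcna) and 7.40-fold (Cdc20), with a median of 4.93-fold over the 33 genes. For 29 of the 33 genes the mice of the highest strain did not overlap those of the lowest strain. The strains were chosen as the extremes for each gene, and the same held for 70.8% of all 20687 genes, so this count is a description.

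Among the replication genes, Mcm2, a helicase subunit (ENSMUSG00000002870, chr6:88883474-88898780, minus strand, GRCm38), gave the lowest p. Its level was 4.84, 5.06 and 5.20 log2 CPM in the 3 Piping mice and ran from 6.404 through 7.76 to 8.13 in the 7 CC044 mice, with no overlap. The strain means, 5.03 ± 0.18 and 7.45 ± 0.66 (SD), differed by 5.34-fold, and the edgeR adjusted p over all strains was 1.06e-05. Mcm3, another subunit of the ring, was at 4.69, 4.93 and 5.45 log2 CPM in the 3 KAV mice and from 6.72 through 7.74 to 8.24 in CC044 (edgeR adjusted p = 4.18e-05). Mcm5 had the widest range of the 8, 7.26-fold between means of 4.57 ± 0.56 in KAV and 7.43 ± 0.78 in CC053 (edgeR adjusted p = 1.43e-04). Its 3 KAV mice were at 4.16, 4.34 and 5.22 log2 CPM and its 6 CC053 mice ran from 6.47 through 7.32 to 8.48. Mcm7 was lowest in KAV (5.11, 5.52 and 6.16 log2 CPM) and highest in CC044 (6.62 through 7.74 to 7.97), with an edgeR adjusted p of 1.40e-04. In each of these genes the low strain was KAV or Piping and the high strain CC044 or CC053.

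Pcna, Mcm6 and Rrm2 varied less or with more scatter. Pcna was at 5.76, 5.87 and 6.06 log2 CPM in Piping and ran from 6.27 through 7.65 to 8.32 in CC044 (edgeR adjusted p = 0.00197). Mcm6 was at 5.80, 6.38 and 6.62 log2 CPM in Piping and from 7.69 through 8.23 to 8.97 in CC053 (edgeR adjusted p = 0.00269). Rrm2 was at 4.56, 4.61 and 5.86 log2 CPM in Piping and from 5.58 through 7.31 to 7.81 in CC044, so that here the strains overlapped (edgeR adjusted p = 0.00494). Mcm4, the remaining helicase subunit, differed 3.97-fold between Piping and CC053. The processed pseudogenes Pcna-ps1 and Pcna-ps2 have rows of their own in the table, so reads of Pcna may be divided among them and its level is uncertain to that extent.

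Rrm2 was the replication gene least like the rest. Over 119 mice its level had a Spearman rho of 0.636 with the mean of the other 7 replication genes, and 0.686 without LOX-C1, Boon-I2 and TOFU-K2. For each of the other 7 the rho with the remaining replication and loading genes ran from 0.832 (Pcna) to 0.932 (Mcm3). LOX-C1 had the highest Rrm2 level of all mice, 8.97 log2 CPM, together with the lowest Gins1 level, 0.75 log2 CPM. The same mouse had the highest sum of neutrophil markers, 743.1 CPM beside a median of 38.95, and their part in its Rrm2 level was not tested.

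Among the mitotic genes, Ube2c, the ubiquitin-conjugating enzyme of the anaphase-promoting complex (ENSMUSG00000001403, chr2:164769898-164778822, plus strand, GRCm38), gave the lowest p. It was at 3.70, 3.82 and 4.27 log2 CPM in the 3 KAV mice and at 6.16, 6.403, 6.46 and 7.41 in the 4 CC040 mice. The means of 3.93 ± 0.30 and 6.61 ± 0.55 (SD) differed by 6.41-fold, with no overlap (edgeR adjusted p = 6.79e-06). Cdc20, the activator of the same complex, had the widest range of all 33 genes. Its values were 3.10, 3.81 and 4.24 log2 CPM in KAV and 6.04, 6.24, 6.65 and 7.504 in CC040 (edgeR adjusted p = 5.61e-05). Plk1, a kinase of mitotic entry and spindle assembly, was at 3.38, 4.20 and 4.26 log2 CPM in Piping and at 5.34, 6.23, 6.55 and 7.03 in CC040 (edgeR adjusted p = 2.87e-05). These genes of mitotic exit and entry were thus all highest in CC040.

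Mki67, the gene of the proliferation antigen Ki-67, followed another order. It was lowest in CC046, at 6.21, 6.77 and 7.51 log2 CPM, and highest in CC053, where the 6 mice ran from 8.54 through 9.81 to 10.60. The means of 6.83 ± 0.65 and 9.55 ± 0.83 (SD) differed by 6.60-fold without overlap (edgeR adjusted p = 1.30e-04). In linear units the 119 mice ran from 5.14 CPM in TOFU-K2 through a median of 252 CPM to 1737 CPM in CC053-H1.

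The highest p among the mitotic genes belonged to Cdk1, the kinase that drives cells into mitosis, and Birc5, a subunit of the chromosomal passenger complex. Cdk1 was at 4.21, 4.71 and 4.93 log2 CPM in Piping and at 6.70, 6.72, 6.99 and 7.62 in CC040, 5.25-fold apart by the means (edgeR adjusted p = 0.0112). Birc5 was at 3.95, 4.19 and 4.64 log2 CPM in KAV and at 6.09, 6.37, 6.59 and 6.90 in CC040 (edgeR adjusted p = 0.00991). Both differed between these strains without overlap.

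The other 15 mitotic genes had edgeR adjusted p between 2.30e-04 (Aurkb) and 0.00845 (Cenpa) and strain ranges from 3.50-fold (Cenpa) to 6.32-fold (Aurkb). They include the kinases Aurka and Aurkb, the cyclins Ccna2, Ccnb1 and Ccnb2, the checkpoint genes Bub1 and Bub1b, the kinetochore genes Cenpa, Cenpe and Cenpf, the motor genes Kif11 and Kif20a, the spindle factor Tpx2, the topoisomerase Top2a and the transcription factor Foxm1. Ccna2 and Tpx2 overlapped between their extreme strains, LOX against CC044 and LOX against CC040. Ccnb1 and Ccnb2 have pseudogenes with rows of their own in the table, so their levels are uncertain where reads are divided. Of the 21 mitotic genes, 12 had their highest mean in CC040, 4 in CC036, 3 in CC044, and 1 each in CC053 (Mki67) and CC021 (Bub1). Their lowest means were in KAV for 7 genes, LOX for 6, CC046 for 5 and Piping for 3. The 8 replication genes had their highest means in CC044 (5) or CC053 (3) and their lowest in Piping (5) or KAV (3).

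Pairs of genes varied together within and across the classes. Over 119 mice the median Spearman rho was 0.805 over 28 pairs of replication genes, 0.829 over 210 pairs of mitotic genes and 0.768 over 168 pairs of a replication with a mitotic gene. For deviations of 103 mice from their strain means the same medians were 0.788, 0.781 and 0.740. Tpx2 was the mitotic gene most like the rest of its list (rho 0.959) and Cdc20 the least (0.831). Of the 21 mitotic genes, 20 were more like the other mitotic genes than the replication score, and the exception was Aurkb (0.894 against 0.924).

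Outside the list, the 8 genes most like the mitotic score over 119 mice, among 11429 genes with a mean of at least 5 CPM, were Ncaph (rho 0.947), Kif2c (0.943), Spag5, Ska1, Kif22, Kif18b, Kif23 and Cenpn (0.927). Kif2c, Kif18b, Kif22 and Kif23 encode kinesins, Ncaph a condensin subunit, Ska1 and Cenpn kinetochore proteins and Spag5 a spindle protein. The 8 most like the replication score were Uhrf1 (rho 0.956), Lig1 (0.933), Ncapd2, Ncaph, Cdca5, Mybl2, Kif22 and Fen1 (0.919). Uhrf1 recognises newly copied DNA, Lig1 and Fen1 finish lagging strands, and Mybl2 is a transcription factor of the cell cycle. Ncaph and Kif22 stood in both sets of 8.

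Other genes of the same processes were read from lists chosen with earlier results of these data known. Of 30 further replication genes, 29 passed the edgeR strain test (28 with limma-voom), all but Rfc3, and their median rho with the replication score over strains was 0.831. Of 30 further mitotic genes, 29 passed with either tool, all but Cdkn3 in edgeR, and their median rho with the mitotic score was 0.908. Of 20 cell cycle regulators tested, 15 passed in edgeR and 13 with limma-voom, where 69% and 50.4% of all genes did, so the edgeR count is near the background. Mybl2, which was highest in CC044 at a mean of 6.36 log2 CPM and lowest in CC001 at 2.85, passed with an edgeR adjusted p of 2.74e-07. E2f2, an activating E2F factor, ran from 1.72 log2 CPM in CC001 to 5.17 in CC044 (edgeR adjusted p = 1.23e-07). Cdkn1a and Cdkn1b, inhibitors of cyclin-dependent kinases, and Rbl2, a retinoblastoma family member, did not pass (edgeR adjusted p = 0.421, 0.261 and 0.845), nor did E2f3 (0.0845) or Lin9 (0.0775).

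**Figure D4:**
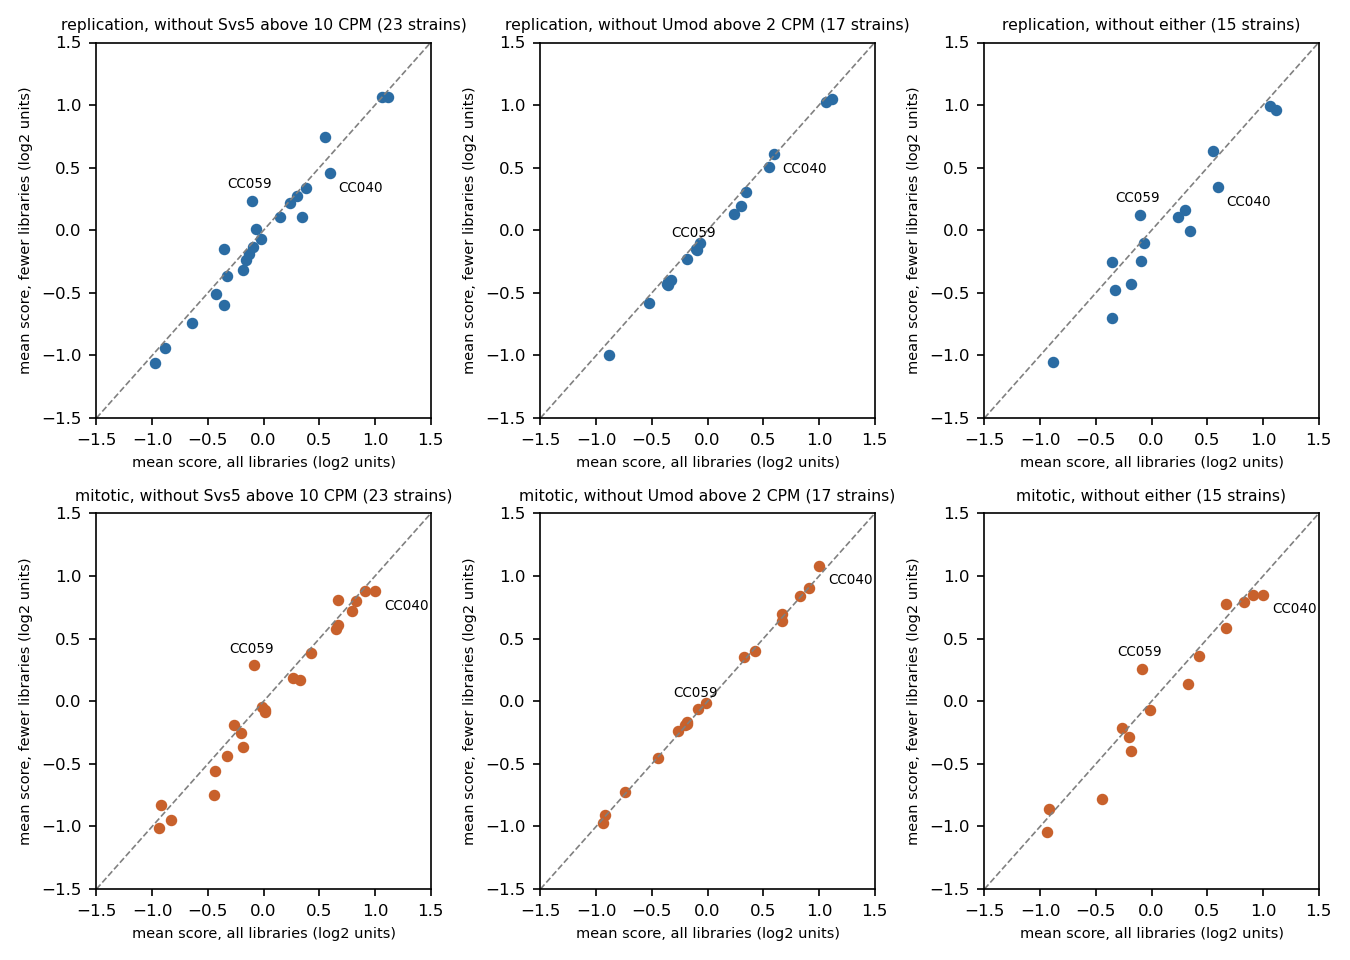
Mean replication score (upper row) and mitotic score (lower row) of each strain with all libraries (horizontal axis) and after leaving out libraries by Svs5, by Umod or by either (vertical axis), in log2 units, for strains that keep 3 or more mice, with a dashed line where both are equal. Most strains stay near the line, and CC059 moves up when Svs5 libraries are left out.

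Leaving out libraries by Svs5 or Umod left the likeness of the 2 rankings in place, and fewer mitotic genes were called where the Svs5 libraries were left out. Without the 35 Svs5 libraries, 84 mice of 23 strains remained, and rho between the 2 scores was 0.918. Without the 34 Umod libraries it was 0.904 over 17 strains, and without both sets 0.929 over 15 strains. Strain means that could still be compared mostly kept their order relative to those from all libraries. For the strains in common, rho between the 2 orders was 0.957 (replication) and 0.969 (mitotic) without the Svs5 libraries, 0.990 and 0.995 without the Umod libraries, and 0.921 and 0.968 without both. The Umod values could hardly differ from these, since of the 17 strains left only CC053 lost a library (1 of 10). CC001, CC021, CC036, CC058, CC081, GIT, LAX and Piping fell below 3 mice there, so their places could not be checked. In the Svs5 set too, strains with no library above that limit kept all their libraries. The likeness to the full order was thus partly fixed in advance there as well. The largest shift was in CC059, which moved by 6 ranks in the replication score and 5 in the mitotic score without the Svs5 libraries. Its means rose from -0.10 ± 0.32 to 0.24 ± 0.42 (replication) and from -0.08 ± 0.48 to 0.29 ± 0.52 (mitotic), as n fell from 5 to 3 mice. The 3 mice left are a subset of the 5, and 1 of them, CC059-E2, also lost its tumour 2 (replication -1.98, mitotic -3.05). The move was not tested. CC044, with 4 of 14 libraries above the Svs5 limit and 0 above the Umod limit, stayed among the 3 highest strains by both scores in each set. KAV stayed among the 3 lowest, but it had no library above either limit, so its place was not put to a check.

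All 8 replication genes passed the edgeR strain test in each of these sets. Without the Svs5 libraries 3 of 4 loading and 15 of 21 mitotic genes passed, beside 59.4% of all genes. Cdc6, Top2a, Ccna2, Cdk1, Cenpe, Kif11 and Tpx2 did not, with adjusted p of up to 0.111. Without the Umod libraries all 33 passed, beside 57.4%. Without both sets, over 56 mice, 2 of 4 loading genes and 8 of 21 mitotic genes passed, beside 43.9%, the mitotic ones being Mki67, Aurka, Aurkb, Plk1, Bub1b, Cdc20, Ube2c and Cenpa. Fewer mice were tested in these sets, and whether the 2 classes of genes lose calls at different rates was not tested. Leaving out the 6 libraries nearer to another strain, or the 19 with over 1% of another tissue, left all 33 called, and rho between the scores was 0.930 and 0.925. Strain orders did move in the second of these sets: against the order from all libraries Boon shifted by 16 ranks in the mitotic score and LAX by 9 in the replication score, and differences between strains made up 56.1% (replication) and 56% (mitotic) of the variance.

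Svs5 itself did not move with the scores in one direction. In 14 strains with libraries on both sides of the Svs5 limit, mean scores of the 2 sides were compared. Libraries above the limit had the higher mean replication score in 8 strains and the higher mean mitotic score in 7. The median difference over strains was 0.13 (replication) and -0.01 (mitotic), from -1.22 to 2.30 and from -1.35 to 4.74. LOX, CC059, CIS and Boon were lower above the limit (mitotic differences of -1.35, -1.18, -0.81 and -0.77). MEE, TAS, YID and CC040 were higher (0.43, 0.72, 0.63 and 0.56). Boon, YID and CC040 each had only 1 library above the limit. The 2 MEE libraries above it were tumours of 1 mouse, MEE-A3, and tumour 1 was nearer to CC044 than to MEE. The widest value, 4.74, is a single pair of TOFU libraries.

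Some mice and tumours stood far below the rest. TOFU-K2 had the lowest scores of all 119 mice, -2.50 (replication) and -4.71 (mitotic), and its skeletal muscle markers summed to 41060 CPM beside a median of 75.8. Ccnb1, whose cyclin activates Cdk1, was at -1.02 log2 CPM there beside a median of 5.75, while Pcna was at 5.70 beside a median of 6.71. Boon-I2 had scores of -1.74 and -3.87, with 13880 CPM of muscle markers. LOX-C1 had scores of -0.94 and -2.66 with 30.3 CPM of muscle markers, below the median. In these 3 mice the replication score was 2.20, 2.12 and 1.72 above the mitotic score, and the part of other tissues in their values was not tested. Without Boon-I2 the Boon mean moved from -0.27 ± 2.42 to 0.93 ± 0.40 in the mitotic score, from rank 18 to rank 2, and from -0.06 ± 1.15 to 0.50 ± 0.33 in the replication score. Without CC081-C5, which had the highest sum of kidney markers (4561 CPM), the 2 remaining CC081 mice had a mean mitotic score of 0.88 and took rank 3 in place of 12. At the other end CC053-H1 had the highest scores, 1.87 and 1.497, and the highest sum of B cell markers, 3856 CPM beside a median of 38.8.

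**Figure D5:**
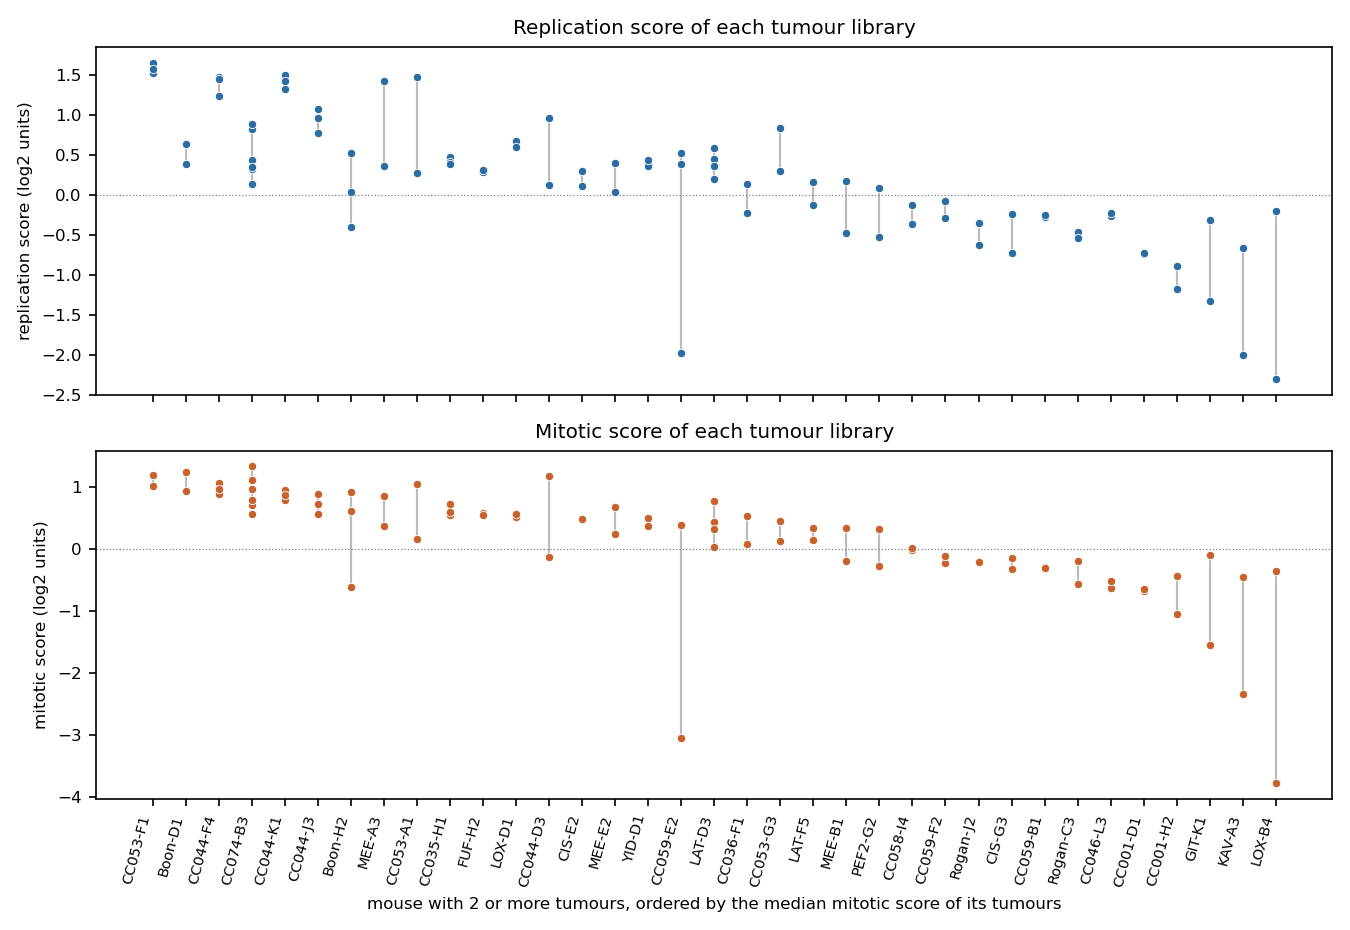
Replication score (upper panel) and mitotic score (lower panel), in log2 units, of each tumour library (points, joined by a line) in the 35 mice with 2 or more tumours, ordered by the median mitotic score of the tumours. Most tumours of a mouse lie close together, while CC059-E2 and LOX-B4 each have 1 tumour more than 3 log2 units below another in the mitotic score.

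Tumours of 1 mouse mostly had similar scores. Over 83 libraries of 35 mice the SD between tumours of a mouse was 0.485 for the replication score and 0.662 for the mitotic score, beside 0.626 and 0.783 among mice of a strain. The median range within a mouse was 0.298 and 0.319. In CC059-E2 tumours 1 and 3 had mitotic scores of 0.40 and 0.38, and tumour 2 had -3.05. Mki67 was at 390, 29.8 and 324 CPM in tumours 1, 2 and 3, and Mcm2 at 85.2, 16.6 and 113 CPM. Tumour 2 was also the one with Svs5 above the limit, at 228 CPM, and it had 1800 CPM of mesothelial markers beside 2990 and 3100. In LOX-B4 tumour 3 had a mitotic score of -3.78 and tumour 1 had -0.35, and the markers of the reproductive tract took 420000 CPM in tumour 3. In KAV-A3 tumour 1 had -2.35 and tumour 2 had -0.46, with no Svs5 counts in either, and matrix and fibroblast markers were at 63800 CPM in tumour 1 beside 17200 CPM in tumour 2. The part of these tissues in the scores was not tested.

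Markers of other cell types were set beside the strain means. Over 25 strains the summed level of 8 fibroblast and matrix markers had a rho of -0.544 with the replication score and -0.382 with the mitotic score. Their median was 3720 CPM in CC044 and 5850 CPM in CC053, against 53800 CPM in Piping and 40800 CPM in KAV, while CC040, highest in the mitotic score, had 16600 CPM. The sum of 6 neutrophil markers had a rho of -0.462 and -0.523, that of 8 T cell markers 0.227 and 0.169, and that of 10 mesothelial markers 0.195 and 0.262. For intestine markers it was -0.495 and -0.343, for skeletal muscle -0.375 and -0.383, for kidney -0.360 and -0.188, for macrophages -0.275 and -0.368, and for hepatocytes -0.317 and -0.105. The T cell sum had a median of 441 CPM in CC044, 314 CPM in CC053 and 34.4 CPM in CC040, beside 30.6 CPM over all mice. Over 119 mice its rho was 0.403 with the replication score and 0.283 with the mitotic score. The sum of 8 B cell markers had a median of 2010 CPM in CC044, 2580 CPM in CC053 and 5.86 CPM in CC040, beside 38.8 CPM over all mice. Its rho over strains was -0.094 and -0.053. Total counts per mouse had a rho of 0.202 and 0.145. The part of these cells in the strain differences was not tested.

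No difference between survival classes was detected for these genes. The 83 mice above median survival had replication scores from -2.50 through a median of 0.09 to 1.87 and mitotic scores from -4.71 through 0.21 to 1.497. The 36 mice below had replication scores from -1.73 through 0.04 to 1.69 and mitotic scores from -2.08 through 0.03 to 1.26, so the groups overlapped almost wholly. None of the 33 genes passed between the classes in edgeR (0 of 33, also 0 at an unadjusted p under 0.05), nor in limma-voom or DESeq2 (0 at either level), while 1.56% of all 17091 genes passed in edgeR. Differences, as mice below minus mice above, ran from -0.17 in Top2a to 0.10 in Mcm7 on the log2 scale. The genes of lowest p were Top2a (-0.17 ± 0.21, SE, edgeR adjusted p = 0.917) and Cdc6 (-0.17 ± 0.21, 0.924) among the negative differences, and Mcm7 (0.10 ± 0.15, 0.933) and Bub1b (0.08 ± 0.18, 0.967) among the positive ones. The median over the 33 genes was -0.018 in edgeR, beside -0.024 over all genes, with 13 of 33 positive, and 0.05 in limma-voom with 27 positive. These genes' differences are thus small beside their errors and their direction as a group depends on the tool.

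Within strains no member passed either. The 57 mice of 13 strains with both classes were fitted with strain as a covariate, and 0 of 33 genes passed in edgeR (0 at an unadjusted p under 0.05, and 0 in limma-voom and DESeq2), beside 0% of all 16481 genes in edgeR (1867 at an unadjusted p under 0.05, and 65 called by DESeq2). Differences ran from -0.28 in Mcm5 to 0.27 in Cenpf. Pcna (-0.26 ± 0.15, SE, edgeR adjusted p = 0.481) and Cdt1 (-0.21 ± 0.16, 0.609) had the lowest p among negative differences and Cenpf (0.27 ± 0.17, 0.549) and Cenpe (0.24 ± 0.18, 0.600) among positive ones. In the 31 mice of 8 strains left without both library sets, all 33 differences were negative, from -0.64 to -0.03 with a median of -0.32, while the median of all genes was -0.003. Of the 33, 9 had an unadjusted p under 0.05, beside 5.53% of all genes, and none passed after adjustment (lowest edgeR adjusted p 0.858). By strain, the mean mitotic score of mice below minus mice above was taken where a strain had 3 or more mice and both classes. It ran from -0.91 in YID (1 mouse below, 3 above) to 0.85 in Piping (2 below, 1 above). VIT, with 2 mice, is outside this range: its mouse below had -0.21 and its mouse above -2.22. The difference between strains was not tested.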

How the data were processed

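RNA-seq libraries of 167 tumours were deposited as a table of estimated counts per gene, made by the authors with kallisto 0.46.1 on GRCm38, per the submitters' processing notes, which also name DESeq2 and DESeq. For the settings and the annotation release: not given in the sources used here. A second table of the series was not used. Of the 167 columns, 165 matched 1 sample and 2 (mouse GIT-K1) only their strain and mouse. Symbols were found for 35825 of 36118 gene identifiers, and locations and transcript lengths come from GENCODE M21.

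Library totals ran from 11138491 to 35399287 (median 22539831), and counts, whole numbers as deposited, were summed per mouse. Intervals and floors cover counting error only. The labels name separate mice within a strain, and no 2 of the 20 closest library pairs agreed within sampling noise. The closest pair was 2 tumours of FUF-H2 (r = 0.997, chi-square per degree of freedom 2.98). Some of these pairs joined mice of different strains, such as MEE-A3 tumour 1 with CC044-K1 tumour 2 (r = 0.990). Low-count genes were removed with edgeR's filterByExpr. Levels are log2 CPM with TMM scaling and a prior count of 2. Strains (103 mice, 25 strains), survival class (119 mice) and class within strain (57 mice, 13 strains) were tested with edgeR 4.0.16 (R 4.3.3), quasi-likelihood, at a Benjamini-Hochberg adjusted p of 0.05. The tests were first tried on simulated data. Alternatives were limma-voom (limma 3.58.1), DESeq2 1.42.0, other scaling, no filter, first tumours, left-out mice and left-out libraries. Those without libraries nearer to another strain or with over 1% of another tissue were chosen after seeing the data.

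The members and lists were chosen with earlier results of these data known. Genes described singly were, in the replication and mitotic lists, the 4 of lowest and 2 of highest p between strains plus Mki67, Pcna and Rrm2; for survival, the 2 of lowest p in each direction. Strains named were the 3 highest and 3 lowest by each score and by the difference of the scores.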

Additional observations from a re-analysis of the deposited data

Results flagged for a closer look

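The 14 strains with 4 or more mice were checked in 3 scores (replication, mitotic and their difference) for a mouse far from the others. Of these 42 checks, which are not independent, 3 found such a mouse, 2 of them the same mouse, where chance gives about 1 in 20. The mitotic score of Boon-I2 was -3.87, while the other 3 Boon mice lay between 0.48 and 1.19. The replication minus mitotic score of the same mouse was 2.12, while the others lay between -0.59 and -0.35. The replication minus mitotic score of LOX-C1 was 1.72, while the other 6 LOX mice lay between 0.10 and 0.73.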

How the results depend on the processing

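Between strains, 18 of the 33 genes passed without libraries above the Svs5 or Umod limit and 18 without replicate 2 of each strain (8 replication, 3 loading and 7 mitotic genes, beside 57.5% of all genes), with fewer mice in both; leaving out 1 replicate number at a time gave 18 to 33. The other tools, scalings and filters all gave 33. The 17 genes called in all 18 settings were the 8 replication genes, Cdt1, Gins1, Mki67, Aurka, Aurkb, Plk1, Bub1b, Cdc20 and Ube2c. Spearman's rho between the scores was 0.904 to 0.934 over the alternatives and 0.886 to 0.935 with each mouse left out. The share of variance between strains with each mouse left out was 48.6% to 54.1% (replication) and 42.3% to 55.9% (mitotic). Among the genes described singly, survival differences changed sign for Mcm7 (-0.015) and, within strain, Cenpf (-0.028) and Cenpe (-0.206) without both library sets, and for Cdc6 (0.04) with limma-voom; the cause was not tested. Of all 33 genes, 13 were positive within strain with all libraries, 2 without the Umod libraries and 0 without both sets. No paired analysis was possible because replicate numbers only name mice in accession order and do not pair mice across strains.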

Other observations

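The mitotic genes did not all fall together, and this was looked at after the values were seen. Of the 21 mitotic genes, the 7 with the longest annotated transcripts (Cdk1, Foxm1, Kif11, Top2a, Cenpe, Mki67 and Cenpf, 4375 to 11130 bases) were set against the 7 with the shortest (Cenpa, Ccnb2, Cdc20, Aurka, Aurkb, Ube2c and Plk1, 1466 to 2199 bases). The mean centred log2 CPM of the long genes minus that of the short genes ran from -0.64 ± 0.33 in CC046 to 0.68 ± 0.05 in CC035 (SD, n = 3 each), and 60.8% of its variance lay between strains. Over 25 strain means it had a rho of -0.619 with the replication minus mitotic score, and of -0.372 over 119 mice. The replication score had a rho of 0.943 with the short genes and 0.862 with the long genes over strain means. Every strain with a negative mean of long minus short genes held libraries above the Svs5 limit, and among strains with a positive mean only CIS and VUX did. The 8 strains whose libraries mostly exceeded the Umod limit all had a positive mean. Whether the contrast follows the strain or the set of libraries was not tested. All points share their libraries, and the cause was not tested.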
